A study of Mus musculus with 12 samples.

Results

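The genes that attach ISG15 to other proteins or take it off again, Isg15, Uba7, Ube2l6, Herc6, Trim25 and Usp18, were followed in splenic CD4+ T cells of mice with and without experimental periodontitis. They were found by symbol and read by Ensembl identifier, and are 6 of the 55414 gene records counted. They were chosen by their measured levels in the 4 groups of these libraries, with the differences between LIP and CTL on day 2 in view, so their levels and changes are given as a description and not as a test. The 12 RNA-seq libraries came from male wild-type BALB/c mice of 18 weeks. In the LIP (ligature-induced periodontitis) group, a silk ligature had been tied around the second maxillary molar on both sides, and the CTL (control) group was anaesthetised without a ligature. CD4+ T cells purified from the spleen by negative selection were collected at once (day 0; CTL 88, 89 and 94; LIP 92, 93 and 94) or after being cultured in the presence of IL-2 with antibodies to TCRβ and to a costimulating receptor (day 2; CTL 92, 93 and 97; LIP 90, 96 and 97). The study's methods give anti-CD28 as the latter, whereas the treatment labels give anti-CD28 in CTL 92 and LIP 90, anti-CD29 in CTL 93 with LIP 96, and anti-CD30 in both libraries numbered 97. The sources used here do not say that the 3 libraries of a group came from separate mice, so the spread between them may be technical.

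ISG15 is a small ubiquitin-like protein. Like ubiquitin, it is activated by an E1 enzyme (UBA7), passed to an E2 enzyme (UBE2L6) and joined to lysines of target proteins by an E3 ligase, a chain of reactions called ISGylation. In mice HERC6 is regarded as the main ISG15 ligase, and TRIM25, better known as a ubiquitin ligase of the RIG-I antiviral pathway, is also reported to act as one. USP18 removes ISG15 from its targets and, apart from that activity, binds the interferon receptor subunit IFNAR2 and damps type I interferon signalling. Genes of this kind are commonly switched on by type I interferon through the transcription factor complex ISGF3, which binds the interferon-stimulated response element (ISRE).

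The stretch just before the start of each gene was searched for such an element. RefSeq windows from 250 bases before to 50 bases after the start (GRCm38.p6, C57BL/6J sequence) matched 5 of the 6 genes. The 100 bases before the start are printed 5′ to 3′ on the gene's strand, with capitals for matches to the ISRE core GAAANNGAAA on either strand with at most 1 letter differing, a looser search added after the sequences had been seen.
Isg15, chr4:156200819-156200918, minus strand: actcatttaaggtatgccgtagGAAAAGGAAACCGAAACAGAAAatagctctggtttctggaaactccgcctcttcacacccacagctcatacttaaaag
Uba7, chr9:107975467-107975566, plus strand: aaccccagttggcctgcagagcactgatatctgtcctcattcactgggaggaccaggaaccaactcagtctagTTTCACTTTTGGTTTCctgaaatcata
Trim25, chr11:88999303-88999402, plus strand: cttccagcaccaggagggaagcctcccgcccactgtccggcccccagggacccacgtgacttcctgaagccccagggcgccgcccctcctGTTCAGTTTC
Herc6, chr6:57580892-57580991, plus strand: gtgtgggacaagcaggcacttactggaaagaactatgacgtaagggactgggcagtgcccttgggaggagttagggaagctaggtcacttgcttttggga
Ube2l6, chr2:84798728-84798827, plus strand: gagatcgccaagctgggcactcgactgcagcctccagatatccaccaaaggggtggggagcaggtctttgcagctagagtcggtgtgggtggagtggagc
Isg15 held 3 exact cores, which overlap each other, on the gene's strand at positions -78 to -69, -72 to -63 and -66 to -57 from the start. The windows of Uba7, Trim25, Herc6 and Ube2l6 held no exact core. With 1 letter differing, overlapping matches lay at -27 to -18 and -21 to -12 in Uba7 and at -10 to -1 in Trim25, and further ones lay wholly or partly outside the printed stretch in Isg15, Uba7, Trim25 and Herc6. The exact core was found in 3.44% of all 32851 promoter windows and the looser form in 35.4%, so the looser matches are common. Among 40 windows of other interferon-stimulated genes, a list described later, the exact core was found in 55% and the looser form in 90%. The gamma-activated sequence TTCNNNGAA and the TATA box TATAAA were found in none of the 5 windows, against 8.3% and 13.6% of all windows. The AP-1 letters TGANTCA were found in Uba7 and in 7.81% of all windows. A match of letters is not a binding site, and the BALB/c sequence was not used here.

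On GRCm39, Isg15 lies on chr4:156283883-156285303, Uba7 on chr9:107852704-107861262, Ube2l6 on chr2:84628630-84640783, Herc6 on chr6:57557932-57642597, Trim25 on chr11:88890202-88911122 and Usp18 on chr6:121222848-121247877. Exons of Isg15 overlap 243 bases of exons of Gm46878, a long non-coding RNA on the other strand that is not among the records counted. Those of Usp18 overlap 124 bases of Gm44148 in the same way, a record with 0 to 2 counts per library. Exons of Uba7 overlap 39 bases of Inka1 on the other strand, which had 18 to 48 counts against 158 to 1107 for Uba7. The libraries were made with a directional kit, which keeps the strand. The strand setting of the counting is not given in the sources used here, so reads of such partners may be included. Herc6 shares 1269 exonic bases with Gm45193 on its own strand, a record with 0 to 27 counts per library against 145 to 773 for Herc6.

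Total counts were 6249018 to 12866718 per library, and 3 counts correspond to 0.269 to 0.452 CPM (counts per 1000000 counts of a library, after TMM scaling over all 12). Markers of CD4 T cells summed to 2510 to 2960 CPM on day 0 and 3530 to 3890 CPM on day 2, and Cd8a and Cd8b1 to 4.43 to 13.2 CPM over all libraries. LIP 90 of day 2 stood apart, with a chi-square per gene of 48.3 and 38.6 against the other LIP libraries of its day, where all other pairs within a group had 2.99 to 13.1. Leaving out CTL 94 of day 0 raised the genes called on that day from 60 to 658, so results are also given without each of these libraries.

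The modifier itself was low except in the stimulated LIP cells. Isg15 had 1.81, 0.722 and 1.45 CPM in CTL 88, 89 and 94 of day 0 and 0.965, 0.985 and 2.27 CPM in LIP 92, 93 and 94. On day 2 it had 3.59, 1.31 and 2.38 CPM in CTL 92, 93 and 97 and 21.7, 26.2 and 55.6 CPM in LIP 90, 96 and 97. Every stimulated LIP library was above every other library, whereas the other 3 groups overlapped. The day 0 values rest on 6 to 17 counts, and those of the stimulated LIP cells on 242 to 429.

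The activating enzyme was the most abundant of the genes per transcript length in resting cells and fell on stimulation. Uba7 had 113, 116 and 110 CPM in the CTL libraries of day 0 and 130, 135 and 148 CPM in the LIP libraries. On day 2 it had 29.9, 18.9 and 30.3 CPM in CTL 92, 93 and 97 and 48.8, 33.6 and 65.2 CPM in LIP 90, 96 and 97. LIP was above CTL without overlap on both days, and both stimulated groups lay below both resting groups.

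The E2 enzyme went the other way. Ube2l6 had 6.18, 6.26 and 6.71 CPM in CTL 88, 89 and 94 of day 0 and 6.61, 8.16 and 6.28 CPM in LIP 92, 93 and 94. It reached 28, 27.9 and 27.9 CPM in CTL 92, 93 and 97 of day 2 and 40.8, 31.2 and 75 CPM in LIP 90, 96 and 97. The resting groups overlapped, and LIP 96 was only a little above the stimulated CTL libraries. The count ratio of Ube2l6 to Uba7 was therefore 0.0425 to 0.0609 in the 6 resting libraries and 0.837 to 1.48 in the 6 stimulated ones.

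The main ligase of the mouse was low only in the stimulated CTL cells. Herc6 had 86.0, 93.1 and 78.8 CPM in CTL 88, 89 and 94 of day 0 and 86.5, 90.9 and 87.9 CPM in LIP 92, 93 and 94. On day 2 it had 37.2, 17.3 and 22.9 CPM in CTL 92, 93 and 97 and 67.5, 62.5 and 93.8 CPM in LIP 90, 96 and 97. The stimulated CTL libraries lay below all others, and the stimulated LIP libraries overlapped both resting groups.

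Trim25 was highest in the stimulated LIP cells. It had 83.5, 85.4 and 106 CPM in the CTL libraries of day 0 and 105, 97.6 and 103 CPM in the LIP libraries. On day 2 it had 161, 108 and 122 CPM in CTL 92, 93 and 97 and 190, 199 and 261 CPM in LIP 90, 96 and 97. The ratio of Herc6 to Trim25 counts was 0.743 to 1.09 at rest, 0.160 to 0.231 in stimulated CTL and 0.314 to 0.359 in stimulated LIP, so the groups of day 2 did not overlap in it.

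The deconjugating protease followed the modifier. Usp18 had 5.73, 6.86 and 7.37 CPM in CTL 88, 89 and 94 of day 0 and 10.3, 6.33 and 9.49 CPM in LIP 92, 93 and 94. On day 2 it had 15.3, 7.76 and 8.63 CPM in CTL 92, 93 and 97 and 54.4, 57.9 and 135 CPM in LIP 90, 96 and 97. Every stimulated LIP library was above all other libraries, as for Isg15. The ratio of Usp18 to Isg15 counts was 3.62 to 5.91 in stimulated CTL and 2.21 to 2.51 in stimulated LIP, and 3.17 to 10.7 at rest, where Isg15 had few counts.

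**Figure D1:**
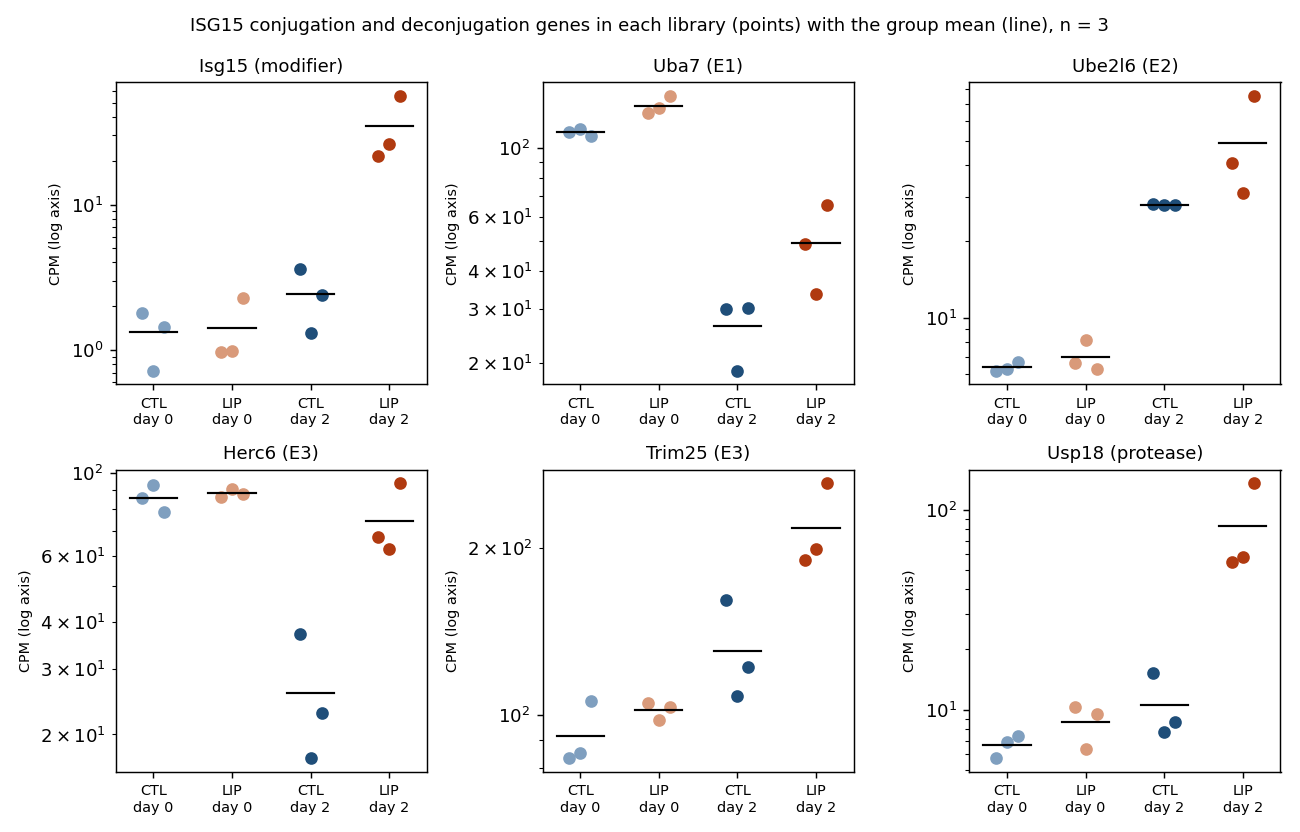
CPM (log axis) of the 6 genes in each library, by group, with the mean of the 3 libraries as a line. Isg15 and Usp18 stand out in stimulated LIP cells, Herc6 and Uba7 are lowest in stimulated CTL cells, and Ube2l6 rises from 6.18 to 8.16 CPM at rest to 27.9 to 75 CPM on day 2.

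Divided by the length of the main transcript, the levels change order with stimulation. In CTL of day 0, Uba7 led with 35.3 ± 0.910 CPM per kb (SD, n = 3), followed by Trim25 (16.4 ± 2.24) and Herc6 (14.8 ± 1.23), whose libraries overlapped. Ube2l6 (4.07 ± 0.183) and Usp18 (3.74 ± 0.472) came next and overlapped, and Isg15 was lowest at 1.70 ± 0.707 CPM per kb. In LIP of day 0 the values ran from 42.9 ± 2.97 for Uba7 to 1.80 ± 0.957 for Isg15, and only Usp18 and Ube2l6 overlapped among neighbours. In stimulated CTL cells Trim25 led with 23.3 ± 4.90 CPM per kb, then Ube2l6 with 17.8 ± 0.0245, and Uba7, Usp18, Herc6 and Isg15 followed with 8.23, 5.94, 4.45 and 3.11, each overlapping its neighbour. By the mean, the deconjugase and the modifier led in stimulated LIP cells, with 46.3 ± 25.6 CPM per kb for Usp18 and 44.1 ± 23.5 for Isg15. Trim25 (38.8 ± 6.93), Ube2l6 (31.3 ± 14.7), Uba7 (15.4 ± 4.93) and Herc6 (12.9 ± 2.90) followed, each gene overlapping the next. That lead rested on LIP 97, which had 75.8 for Usp18, 71.1 for Isg15 and 46.7 for Trim25. In LIP 90 Trim25 led with 34, above Usp18 (30.5) and Isg15 (27.7), and Trim25 also led in LIP 96.

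**Figure D2:**
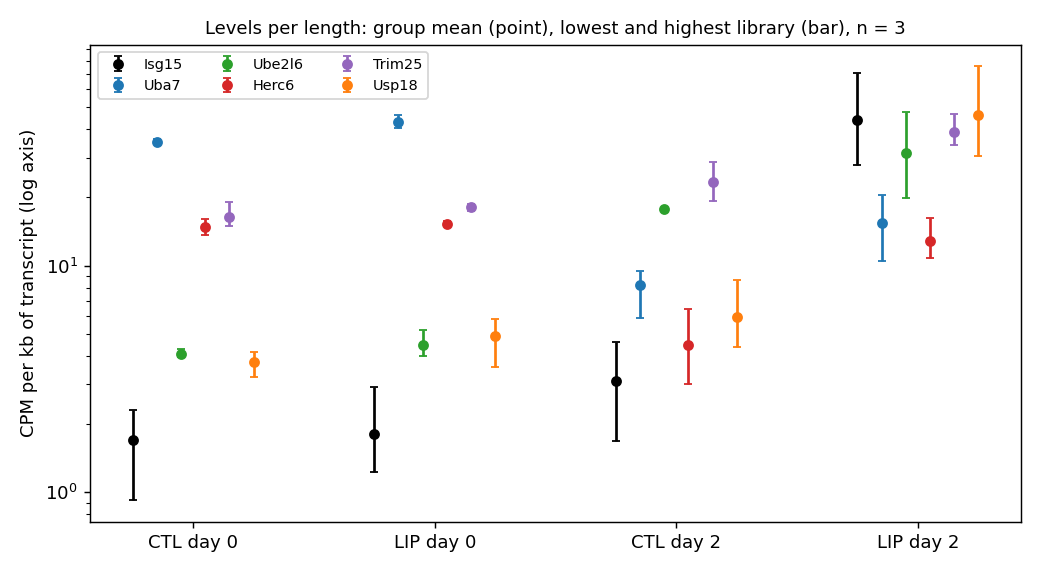
CPM per kb of transcript (log axis) for each gene in the 4 groups, with points for the mean of 3 libraries and bars from the lowest to the highest library. Isg15 is lowest in 3 groups, at 1.70 to 3.11 CPM per kb, and reaches 44.1 in stimulated LIP cells.

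The first comparison asked whether LIP alone altered these genes in unstimulated cells. None of the 6 passed an adjusted p of 0.05 in the quasi-likelihood test of edgeR (Benjamini-Hochberg), where 0.427% of the 14064 genes tested passed. Uba7 had the clearest difference, with a log2 fold change of LIP over CTL of 0.29 (SE 0.07, 95% confidence interval 0.13 to 0.44). It was the 1 gene of the 6 with an unadjusted p under 0.05 (13.9% of all genes) and the 1 whose groups did not overlap (19.1% of all genes). The log2 fold changes of the other 5 were 0.05 to 0.39, and each interval included 0. That of Isg15, which had 6 to 17 counts, ran from -0.92 to 1.18. Its sign turned when CTL 89 (-0.19) or LIP 94 (-0.41) was left out, and that of Herc6 when CTL 94 was left out (-0.02). Without CTL 94, Uba7 had 0.26 and again none of the 6 passed, while 4.59% of all genes did. On this day the 6 NK cell markers summed to 5.66 to 17.9 CPM in CTL and 16 to 25.5 CPM in LIP. Myeloid markers summed to 6.38 to 13.2 and 8.96 to 14.8 CPM, and B cell markers to 1.93 to 5.57 and 3.17 to 5.34 CPM. Those of plasmacytoid dendritic cells summed to 52.4 to 61.3 and 56.1 to 63 CPM. Each sum overlapped between the groups, and the part of these cells was not tested.

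The second comparison asked how the groups differed after stimulation. All 6 were higher in LIP. The log2 fold change was 3.79 for Isg15 (SE 0.46, interval 2.74 to 4.84), a 13.8-fold difference, and 2.94 for Usp18 (SE 0.42, interval 1.99 to 3.90), a 7.70-fold difference. Herc6 followed at 1.52 (SE 0.28, interval 0.88 to 2.15). Uba7, Ube2l6 and Trim25 were higher by 0.89 (SE 0.27), 0.80 (SE 0.29) and 0.73 (SE 0.19). The median over the 6 was 1.2, against -0.01 over all 14041 genes tested. In all 6 the groups did not overlap and LIP was higher, as for 10.9% of all genes, and all 6 had an unadjusted p under 0.05 with LIP higher, as for 8.33%. None passed an adjusted p of 0.05, and neither did any other gene tested (percent called 0). At an unadjusted p under 0.05 there were 2322 genes (16.5%), and DESeq2 called 485 genes (3.45%) and 5 of the 6. Without the filter on low counts, all 6 passed, as did 2.57% of 25712 genes.

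Single libraries weighed on this comparison. LIP 97 was the highest library for all 6 genes, CTL 93 the lowest CTL library for 5 of them. Without LIP 90, 4 of the 6 and 2014 genes in all passed an adjusted p of 0.05 (13.9%), namely Isg15, Usp18, Herc6 and Trim25, with log2 fold changes of 4.05, 3.19, 1.61 and 0.84. Without LIP 97 the log2 fold changes were 3.27 for Isg15, 2.39 for Usp18 and 1.32 for Herc6, while that of Ube2l6 dropped from 0.80 to 0.35. With all 12 libraries in 1 fit, 5 of the 6 and 5.01% of all genes passed. The antibody named in the labels pairs each CTL library of day 2 with 1 LIP library, and with it as a block, an alternative added after the data had been seen, the log2 fold changes were 3.73 for Isg15 and 2.86 for Usp18.

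**Figure D3:**
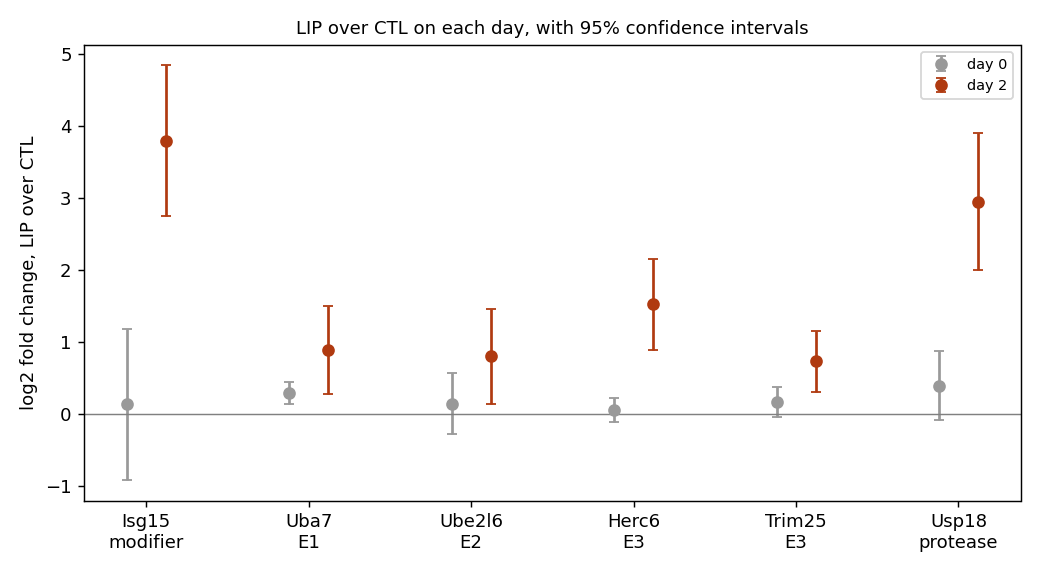
Log2 fold change of LIP over CTL for each gene on day 0 and day 2, with 95% confidence intervals from edgeR's fit. On day 0 only the interval of Uba7 (0.13 to 0.44) lies above 0, and on day 2 the values run from 0.73 for Trim25 to 3.79 for Isg15.

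Markers of other cells were set beside this difference. The 8 B cell markers summed to 4.02, 4.66 and 22.5 CPM in CTL 92, 93 and 97 of day 2 and to 1.43, 35.7 and 34.1 CPM in LIP 90, 96 and 97, with Fcrla at 0 in both groups. The 6 NK cell markers summed to 3.49, 0.955 and 13.1 CPM and to 2.69, 49.6 and 12.2 CPM, with Klra8 at 0, and the 10 myeloid markers to 6.76, 5.49 and 4.20 CPM and to 3.76, 12.0 and 7.26 CPM, with S100a8 and S100a9 at 0. The 6 markers of plasmacytoid dendritic cells, which make much type I interferon, summed to 133, 156 and 163 CPM and to 172, 116 and 188 CPM, with Klk1 at 0 in both groups and Siglech at 0 in LIP and at most 0.114 CPM in CTL. Of the 4 tested, Bst2, which is also among the interferon-stimulated genes listed below, had 39, 18 and 25.7 CPM in CTL 92, 93 and 97 and 58.9, 52.6 and 101 CPM in LIP 90, 96 and 97, without overlap (log2 fold change 1.35, SE 0.33). Irf8, Tcf4 and Ccr9 overlapped between the groups, with log2 fold changes of -0.61, 0.03 and 0.35. The part of any of these cells in the difference was not tested. In bulk samples, fewer cells of a type and less RNA per cell cannot be told apart.

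The change on stimulation was compared within each group. Most genes changed: 69% of the 15475 genes tested passed an adjusted p of 0.05 in CTL and 71.8% in LIP. In CTL, 4 of the 6 passed. Uba7 and Herc6 fell by 2.1 (SE 0.21) and 1.73 (SE 0.22) on the log2 scale, Ube2l6 rose by 2.13 (SE 0.27) and Trim25 rose by 0.51 (SE 0.16). Isg15 and Usp18 had log2 fold changes of 0.92 (interval -0.31 to 2.14) and 0.67 (interval -0.17 to 1.51). In LIP, 5 of the 6 passed. Isg15 rose by 4.58 (SE 0.46), Usp18 by 3.23 (SE 0.36), Ube2l6 by 2.79 (SE 0.27) and Trim25 by 1.09 (SE 0.16), while Uba7 fell by 1.49 (SE 0.20). For Isg15 the count filter's level was reached in only 2 CTL and 1 LIP libraries of day 0. It was reached in every library of day 2, which favours a rise of Isg15 in both groups. Herc6 had a log2 fold change of -0.25 (interval -0.70 to 0.20). The call of Trim25 in CTL was lost without CTL 92 of day 2 (log2 fold change 0.33), with upper-quartile scaling (0.22) and with no scaling factor (0.32). Under the same scalings Herc6 was called lower in LIP (-0.57 and -0.61). Upper-quartile scaling lowered the median of all genes in CTL from -0.02 to -0.31 and moved the genes called higher and lower from 5456 and 5220 to 4259 and 6827, and no scaling factor gave -0.21, with 4621 and 6272. In LIP the median went from 0 to -0.32 and -0.36, and the genes called higher and lower from 5665 and 5446 to 4293 and 7084 and to 4138 and 7285. Markers of other cells also moved. Over both groups, the B cell sums were 1.93 to 5.57 CPM on day 0 and 1.43 to 35.7 CPM on day 2, and the NK cell sums 5.66 to 25.5 CPM and 0.955 to 49.6 CPM. The myeloid sums were 6.38 to 14.8 CPM on day 0 and 3.76 to 12.0 CPM on day 2, and those of plasmacytoid dendritic cells 52.4 to 63 CPM and 116 to 188 CPM. In the latter list, Siglech had at most 0.395 CPM and Klk1 was at 0 in all 12 libraries. Irf8 had 4.33 to 12.5 CPM on day 0 and 45.5 to 125 CPM on day 2, and Bst2 7.88 to 11.6 CPM and 18 to 101 CPM. Ccr9 went the other way, with 30.7 to 36.7 CPM and 1.7 to 4.21 CPM. The tested markers of B, NK and myeloid cells had mostly passed the count filter through only part of the groups, so their calls are not given. The 4 tested markers of plasmacytoid dendritic cells reached its level in every library, and Bst2, Irf8 and Tcf4 were called higher and Ccr9 lower on day 2 in both groups. The part of these cells in the changes was not tested.

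**Figure D4:**
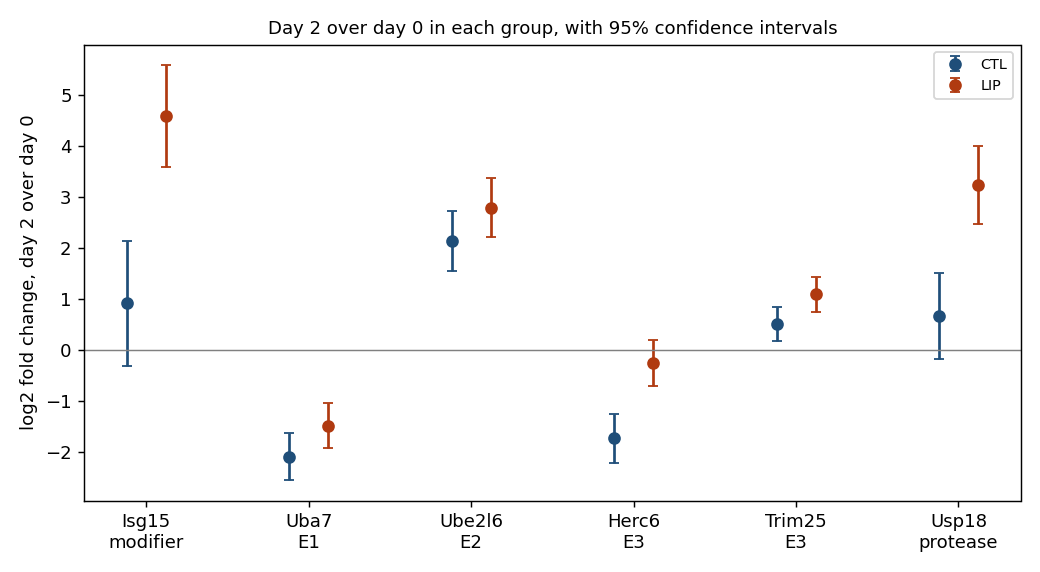
Log2 fold change of day 2 over day 0 in CTL and in LIP for each gene, with 95% confidence intervals. Uba7 falls and Ube2l6 rises in both groups, and the LIP value is the higher for all 6 genes, most of all for Isg15 (4.58 against 0.92).

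The difference between these changes was fitted as an interaction. It was positive for all 6, with 3.67 for Isg15 (SE 0.79), 2.56 for Usp18 (SE 0.53) and 1.48 for Herc6 (SE 0.30) on the log2 scale, and 0.61, 0.67 and 0.58 for Uba7, Ube2l6 and Trim25. Without LIP 97 of day 2, that of Ube2l6 dropped to 0.23 and that of Uba7 to 0.37. None of the 6 passed an adjusted p of 0.05, where 0.0517% of 15475 genes did, and 4 had an unadjusted p under 0.05, where 15.9% of all genes did. Without LIP 90 of day 2, 3 of the 6 and 10.1% of all genes passed. The 3 were Isg15, Usp18 and Herc6. Without CTL 92 of day 2, 1 passed, Herc6, as did 0.0762% of all genes, and leaving out any other single library gave 0.

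Other genes of ISG15 biology and of the ubiquitin-like systems were read from lists. Of 18 tested enzymes and partners reported for ISG15, none passed on day 2 in LIP over CTL, 1 had an unadjusted p under 0.05, beside 16.5% of all genes, and the median log2 fold change was 0.01. The lowest p-values belonged to Sqstm1, a cargo receptor of autophagy (0.94, SE 0.31), and Vps4a, an ATPase of the endosomal sorting machinery (0.23, SE 0.11). Sqstm1 had 115, 121 and 111 CPM in stimulated CTL libraries and 119, 334 and 219 CPM in LIP 90, 96 and 97, so LIP 90 lay among the CTL libraries.

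The enzymes that serve other modifiers had medians near 0 in the same comparison, with 0.03 for 9 other E1 genes, 0.00 for 16 other E2 genes and -0.01 for Herc1 to Herc4. An unadjusted p under 0.05 was found for 1 of the 9, 0 of the 16 and 0 of the 4, and 2, 2 and 0 of them were higher in LIP without overlap, beside 16.5% and 10.9% of all genes. The modifiers were mixed. The median of 14 tested was 0.05 (range -0.22 to 0.65), but 5 had an unadjusted p under 0.05 and 4 did not overlap between the groups, all with LIP higher, beside 8.33% and 10.9% of all genes. The lowest p-values belonged to Atg12, a modifier of autophagy (0.65, SE 0.21), and Ufm1, the modifier of ufmylation (0.40, SE 0.13). Ufm1 had 45.1, 39.7 and 51 CPM in stimulated CTL and 60, 65.1 and 55.3 CPM in stimulated LIP. The other 3, named after their values were seen, were Rps27a, Fau and Ubb, with log2 fold changes of 0.34 to 0.44. The 15 listed modifiers summed to 4020 to 4500 CPM in CTL and 4770 to 5180 CPM in LIP, without overlap. None of these genes passed adjustment. Uba1, the E1 of ubiquitin, had -0.24 (SE 0.17), Ube2l3, the closest relative of Ube2l6, -0.03 (SE 0.15), and Nedd8, the modifier of cullins, 0.09 (SE 0.15). On stimulation, Uba1 rose by 1.19 (SE 0.14) in CTL and 1.12 (SE 0.14) in LIP, where Uba7 fell, and Ube2l3 rose by 1.16 (SE 0.12) and 1.28 (SE 0.12). All 4 of Herc1 to Herc4 fell in both groups, by 0.88 to 1.19 in CTL and 0.71 to 1.45 in LIP on the log2 scale. The log2 fold change of Herc6 was -1.73 in CTL and -0.25 in LIP, outside both ranges, and the difference from them was not tested.

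The signalling genes upstream gave a mixed picture. Among 14 genes of the type I interferon receptor and of ISGF3 signalling, the median of LIP over CTL on day 2 was 0.15, 4 had an unadjusted p under 0.05 with LIP higher, beside 8.33% of all genes, and none passed adjustment. The lowest p-values belonged to Stat2, a subunit of ISGF3 (log2 fold change 1.26, SE 0.24), and Irf7, an interferon-inducible regulator of interferon genes (2.68, SE 0.52). Stat2 had 125, 73.4 and 83.4 CPM in stimulated CTL and 198, 192 and 287 CPM in stimulated LIP, and Irf7 23.4, 6.69 and 11.4 CPM and 47.0, 72.4 and 149 CPM, both without overlap. The receptor subunits Ifnar1 and Ifnar2 had log2 fold changes of 0.18 (SE 0.14) and 0.42 (SE 0.18). On stimulation Jak1, a receptor kinase, fell by 1.25 (SE 0.10) in CTL and 1.17 (SE 0.10) in LIP, and Stat2 rose by 0.83 (SE 0.19) and 2.00 (SE 0.19).

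Reads of the type I and type III interferons themselves were nearly absent. Of 20 ligand genes, most were at 0 in all 12 libraries. These were Ifnb1, Ifnl2, Ifnl3, Ifne, Ifnab and the listed Ifna genes other than Ifna2, Ifna4 and Ifna13. A value of 0 allows up to 0.269 to 0.452 CPM per library for counting error. Ifna13 had 0.119 CPM in CTL 93, and Ifna2 and Ifna4 0.0896 CPM each in LIP 90, all on day 2, which is 1 read each and below that limit. Ifnk had 0.114 to 1.66 CPM over the 12 libraries and was too low to be tested. Ifng, the type II interferon, was the 1 ligand tested, with 40.6, 28.9 and 16.1 CPM in stimulated CTL and 21.3, 11.5 and 7.00 CPM in stimulated LIP (log2 fold change -1.10, SE 0.42, adjusted p = 0.248 by edgeR's quasi-likelihood test).

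The 6 genes were accompanied by other interferon-stimulated genes. Their list was written with earlier results of these data known, so its counts are a description and not a test. Of 44 listed, 37 were tested on day 2 in LIP over CTL, and none passed adjustment. In 29 of the 37, as in all 6 ISG15 genes, the filter's level of 1.03 CPM was reached in every CTL library. All 29 had a positive log2 fold change (median 1.28, range 0.34 to 2.73), 26 did not overlap between the groups with LIP higher and 26 had an unadjusted p under 0.05, against the 10.9% and 8.33% of all genes given above. The other 8, Ifit1, Ifit3, Oas1a, Oasl1, Mx1, Cmpk2, Rtp4 and Ifi44, reached it in all 3 LIP libraries but not in all CTL libraries, so they were tested because they were high in LIP, and their direction is no finding. The lowest p-values belonged to Parp12, an ADP-ribosyltransferase (2.32, SE 0.28), and to Oasl1, of the oligoadenylate synthetase family and 1 of these 8, which had 1.69, 1.55 and 0.908 CPM in CTL and 7.08, 9.18 and 14 CPM in LIP. In CTL cells 9 of 42 rose and 21 fell on stimulation, where 35.3% of all genes rose and 33.7% fell, and in LIP cells 21 rose and 11 fell, where 36.6% of all genes rose and 35.2% fell. For 5 of the 42, Ifit1bl1, Ifit3, Ifit3b, Oas2 and Ifi44l, the filter's level was reached in all LIP libraries of day 0 but not in all libraries of either group of day 2, which favours a fall. Without them, 9 of 37 rose and 17 fell in CTL, and 21 rose and 8 fell in LIP. Gbp2, a guanylate-binding protein, rose by 2.44 (SE 0.16) in CTL and 3.41 (SE 0.17) in LIP, and Samd9l fell by 5.01 (SE 0.39) and 2.56 (SE 0.33). Like the 6 genes, this longer list held members that rose and members that fell. On day 0 its median was 0.10, with 26 of 41 positive and none passing, and Dhx58 and Xaf1 had the lowest p-values (0.62, SE 0.17, and 0.37, SE 0.11).

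**Figure D5:**
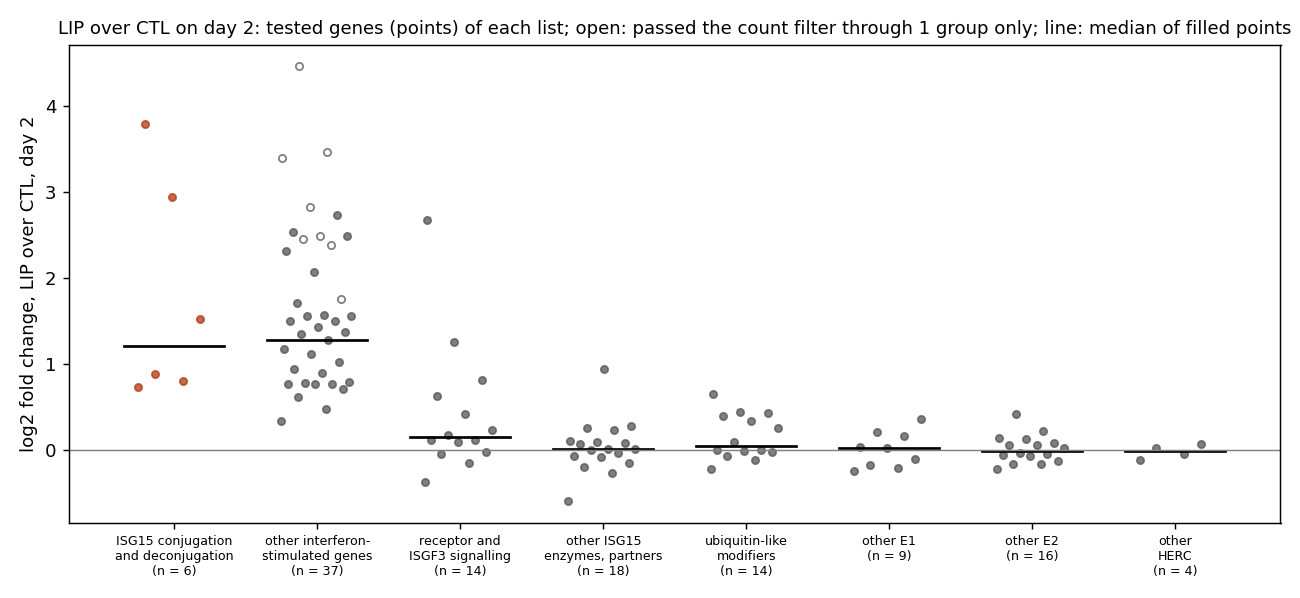
Log2 fold change of LIP over CTL on day 2 for each tested gene of 8 lists, with open points for the 8 genes that passed the count filter only through LIP, which favours values above 0, and the median of the filled points as a line. The 6 genes (median 1.2) and the other 29 interferon-stimulated genes (median 1.28) lie above 0, the ubiquitin-like modifiers run from -0.22 to 0.65, and the other E1, E2 and HERC genes have medians of 0.03, 0.00 and -0.01.

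The genes whose levels ran most like that of Isg15 were ranked by Pearson's r of log2 CPM within each day, taking the lower of the values for day 0 and day 2 over 6 libraries each. They were Il12rb2, Tapbp, 1700007L15Rik, Det1, Uqcrq, BC025920, Uxt and Usp6nl among 15429 genes, with r of 0.86 to 0.98 on day 0 and 0.86 to 0.96 on day 2. The day 0 values of Isg15 rest on few counts. By day 2 alone, Usp18 ranked 1st (r = 0.99), Herc6 ranked 33 (0.98), Trim25 73 (0.96), Uba7 443 (0.89) and Ube2l6 1139 (0.80), while on day 0 their r ran from -0.44 for Herc6 to 0.26 for Uba7. The libraries of a day share the contrast of LIP with CTL, so these r describe that contrast too.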

How the data were processed

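RNA from 12 libraries was depleted of ribosomal RNA and sequenced as 150-bp pairs on a DNBSEQ-G400. The authors checked reads with FastQC 0.11.9, trimmed them with Trimmomatic (0.38 in the submitters' processing notes) and deposited expected counts per gene, estimated by RSEM 1.3.0 with Bowtie2 and not normalized. The build is GRCm39, and the annotation release and strand setting are not given in the sources used here. The authors' tables of each day also held gene symbols, a signal per library, log2 fold changes, p-values and false discovery rates. Only the symbols were used, and 2 signal columns matched no labelled sample.

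Expected counts were rounded, and tests were run with edgeR 4.0.16 under R 4.3.3 (filterByExpr, TMM, quasi-likelihood test, Benjamini-Hochberg over all genes tested). LIP and CTL were compared within each day. Day 2 against day 0, and the interaction, came from 1 fit of all 12 libraries. The SE is the log2 fold change divided by the square root of F. CPM used TMM factors over all 12 libraries. Symbols came from the authors' tables for 15174 records and otherwise from GENCODE M39, whose main transcript gave the lengths. Scripts were tested on simulated data.

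The genes, the lists and the rule for naming others were chosen with earlier results of these data known. From each list, at most 4 genes per direction with the lowest adjusted p under 0.05 were named, or 2 with the lowest p where none passed, besides the nearest relatives of the 6 genes. Alternatives were RLE, upper-quartile or no scaling factor, DESeq2 1.42.0, limma-voom (limma 3.58.1), 2 other filters, other sets of libraries, and leaving out each library. Limits from 0 counts are 3 counts, and cover counting error only. 2 genes of the lists are not reported here.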

Additional observations from a re-analysis of the deposited data

Results flagged for a closer look

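Among the genes named, the change from day 0 to day 2 differed between LIP and CTL past the adjusted threshold only for Parp12, an interferon-stimulated ADP-ribosyltransferase. Parp12 had 16.1, 16.1 and 14.6 CPM in CTL 88, 89 and 94 of day 0 and 14.7, 12.0 and 17.0 CPM in LIP 92, 93 and 94. On day 2 it had 3.06, 1.67 and 2.27 CPM in CTL 92, 93 and 97 and 11.8, 9.64 and 14.3 CPM in LIP 90, 96 and 97. It fell by 2.72 (SE 0.23) on the log2 scale in CTL, had a log2 fold change of -0.30 (SE 0.20) in LIP, and the interaction was 2.42 (SE 0.30, adjusted p = 0.0136 by edgeR's quasi-likelihood test). The call was lost in 5 of the 12 fits that left out 1 library, those without CTL 88 or 89 or LIP 92 or 93 of day 0 or CTL 93 of day 2, with interactions of 2.24 to 2.68 and adjusted p of 0.000317 to 0.0846 over the 12. This is the pattern that Herc6 showed, whose interaction of 1.48 (SE 0.30) did not pass.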

How the results depend on the processing

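The number of the 6 genes called moved as follows, with the share of all genes called under the same setting in parentheses. For LIP over CTL on day 2, where none was called, DESeq2 called 5 (3.45%), no filter on low counts 6 (2.57%), the fit of all 12 libraries 5 (5.01%), and leaving out 1 library gave 0 to 4, with 4 without LIP 90 (13.9%). For the interaction, where none was called, DESeq2 called 3 (3.36%), no filter 3 (2.89%), leaving out CTL 94 of day 0 together with LIP 90 of day 2 gave 3 (10.6%), and leaving out 1 library gave 0 to 3, with 3 without LIP 90 of day 2 (10.1%). For LIP over CTL on day 0, no filter called 1, Uba7 (2.52%). For day 2 over day 0 in CTL, where 4 were called, no filter called 6 (40.2%), adding Isg15 and Usp18, and upper-quartile scaling and no scaling factor called 3 each (71.6% and 70.4%), as did leaving out CTL 92 of day 2 (63.9%). In LIP, where 5 were called, both scalings called 6 (73.5% and 73.8%). Without the filter the genes tested on day 2 rose from 14041 to 25712. The cause of the other changes was not tested. Leaving out 1 library, the log2 fold change of Isg15 on day 0 ran from -0.41 to 0.39, with -0.19 without CTL 89, and that of Herc6 from -0.02 to 0.10. No other direction turned under the alternatives run. At least 10 counts in every library removed Isg15 from all fits except that of day 2, which left 4 of 5 called for day 2 over day 0 in LIP (73.2%). Without a scaling factor, the means of Herc6 and Trim25 in LIP of day 0, Uba7 on day 0 in both groups, and Ube2l6 in CTL on both days moved by more than 1 SD. No paired analysis by replicate number was possible because the groups compared share at most 1 number, 94 on day 0 and 97 on day 2. The antibody in the labels did pair the libraries of day 2, and with it as a block none of the 6 passed, as without it.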
